A study of Drosophila melanogaster with 12 samples.

Results

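Acetylation of lysine 23 on histone H3 (H3K23ac) was compared with total histone H3 over transposable elements and piRNA clusters in control ovaries of Drosophila melanogaster, using 4 chromatin immunoprecipitation sequencing (ChIP-seq) libraries of the 12 in the study, 2 for H3K23ac and 2 for H3. The study asked how the acetyltransferase Enok acts on piRNA clusters, and these 4 libraries come from ovaries that still have Enok. All carried the label GFP_KD, in which tj-GAL4 and a nos-driven GAL4::VP16 line together drove a short hairpin RNA against EGFP, which is not a fly gene. The tj driver acts in the somatic follicle cells and the nos driver in the germline, so the hairpin was expressed in both. Ovaries were taken from 2- to 3-day-old females kept at 29 °C for 2 to 3 days, and a library held chromatin of pooled ovaries with follicle cells and germline mixed. A value is therefore an average over those cell types. The remaining libraries came from input chromatin, which was left out here, and from enok_KD ovaries.

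H3K23ac is a histone mark that in flies is placed in large part by Enok, a MYST-family acetyltransferase. H3 reads report how many nucleosomes of a region were recovered, so the ratio of H3K23ac to H3 gives the mark per nucleosome relative to other regions. Transposons are mobile repeats, of which DNA transposons move by cutting and pasting, while LTR and LINE elements copy themselves through RNA. piRNA clusters are genomic stretches filled with transposon remnants, mostly next to centromeres and telomeres, whose transcripts are cut into piRNAs, the small RNAs that guide Piwi proteins to transposons.

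The members were the features with a mean of at least 10 reads, that is 203 of 215 transposon entries and 93 of 142 piRNA clusters. Of the other transposon entries, 5 had 0 reads and 7 fell under the minimum. All 46 clusters on unplaced U scaffolds had 0 reads, and 3 more clusters fell under the minimum. Clusters 70, 107, 110 and 128 had no uniquely mapped piRNAs in the study's wild-type ovaries. The study left them out of its piRNA comparison, and they were kept here. The entries nearest the minimum were TRAM_I (mean of 10.4 reads) just inside it and FUSHI_DM (9.5 reads) just outside it, and for clusters, cluster 110 and cluster 138 (11.75 reads each) inside and cluster 133 (8.625 reads) outside. Only reads with a single genomic position were kept by the study, so each element is represented by its unique copies and edges.

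The H3K23ac libraries held 370429 and 296722 transposon reads and the H3 libraries 545531 and 628808, while for clusters the totals were 34324 and 27084 reads in H3K23ac and 63603 and 72946 in H3. Within a table, the replicates of one antibody ranked features alike, with Spearman coefficients of 0.991 to 0.998 across features. The H3K23ac replicates did not differ beyond sampling noise over clusters (chi-square per degree of freedom of 1.19) but did over transposons (2.72), and were kept as 2 samples. The H3 replicates differed beyond sampling noise in both tables (5.52 over transposons and 1.68 over clusters). The study calls the replicates independent and states the ovaries used for each replicate, while the sample labels give only their numbering. The p-values measure the spread between libraries. This spread was estimated from the 8 H3 and H3K23ac libraries of GFP_KD and enok_KD ovaries. An exact test of 2 against 2 libraries cannot go below p = 0.333. Features were therefore called with edgeR's quasi-likelihood test, at a Benjamini-Hochberg adjusted p under 0.05. In this test all features share information on the spread. The weight of the shared value, in degrees of freedom, was 4.71 for transposons and infinite for clusters. A cluster's own replicate spread thus did not enter its test, and very small p-values of clusters rest on the shared value. Values below are reads per 1e+06 reads of the table (CPM) after TMM scaling, and the log2 ratio is H3K23ac over H3.

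The TMM scaling sets the typical feature of a table near equality, so a log2 ratio of 0 means the typical mark per H3 in that table and not an absence of the mark. Scaling by total reads moved the median log2 ratio by -0.08 for transposons and by -0.53 for clusters. Scaling factors borrowed from the other table moved it by 0.79 and -0.79, and 1 fit of both tables together moved it by 0.22 and -0.57. The order of features within a table hardly depends on this choice, but the line between higher and lower does. On the common scale of the fit over both tables the median log2 ratio was 0.36 for transposon entries and -0.73 for clusters, a difference of 1.09.

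H3K23ac per H3 varied widely among transposons. Of the 203 entries, 73 (36.0%) had more H3K23ac than H3 and 66 (32.5%) had less, so that 68.5% differed in one direction or the other, with a median log2 ratio of 0.14. The split was 66 higher and 70 lower with total reads, 128 and 26 with the factors of the cluster table, and 95 and 58 in the fit of both tables. Both H3K23ac values lay above both H3 values for 99 entries (48.8%) and below for 88 (43.3%), and the 2 antibodies overlapped for 16 (7.88%). Under the 11 settings that left out no GFP_KD library, 66 entries were higher and 26 lower wherever they were tested. A minimum mean of 100 counts tested only 122 of the 139 called entries.

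DNA transposons had the highest median ratio of H3K23ac to H3 of the 3 large classes. Of 31 labelled entries 29 were tested, and 24 of them were higher and none lower, against 36.0% higher and 32.5% lower among all entries tested. Their median log2 ratio was 0.84, as compared with 0.14 over all entries, and ranged from 0.14 for PROTOP_A to 2.00 for PLACW_DM. As a share of all transposon reads, the class took 10.6% and 10.5% of H3K23ac reads against 6.02% and 5.58% of H3 reads. No scaling turned the direction, with 22 to 29 of the 29 higher and none lower. With 1 library left out, 16 to 19 were still called higher and none lower.

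**Figure D1:**
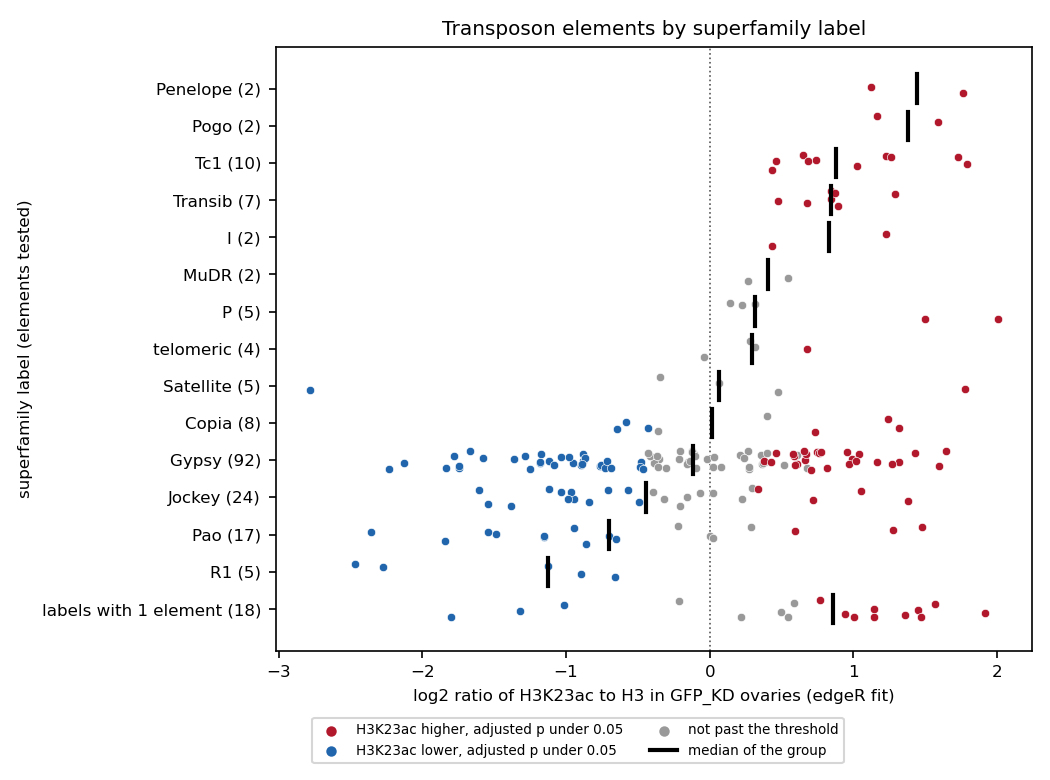
Log2 ratio of H3K23ac to H3 in GFP_KD ovaries (horizontal axis, edgeR fit) for each of the 203 transposon entries tested (1 point per entry), in rows by superfamily label with the number of entries, coloured by the call, with a black bar at the median of each row. All 10 Tc1 and 7 Transib entries lie right of 0, the 5 R1 entries lie left of it, and Gypsy and Jockey spread over both sides, where 0 follows the TMM scaling and factors from the cluster table would move the points right by about 0.79.

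The Tc1 superfamily, the Tc1/mariner cut-and-paste elements, had 10 of its 12 entries tested, and all 10 were higher (median 0.88). FB4_DM, a foldback element labelled Tc1 here, with long inverted repeats, gave 30678 and 31604 CPM in H3K23ac against 9896 and 8912 CPM in H3. This was a 3.31-fold excess with non-overlapping libraries (log2 1.73, SE 0.148, adjusted p = 9.4e-05 in edgeR). The Tc1-labelled entry of Rehavkus-1_DY had 142 and 151 CPM in H3K23ac and 43.9 and 40.3 CPM in H3 (log2 1.79). Another entry of the same name, labelled MuDR, did not pass the test under the main scaling (log2 0.27). At the low end, TC1_DM gave 4092 and 3643 CPM in H3K23ac against 2863 and 2870 CPM in H3 (log2 0.43, adjusted p = 0.0141), a call that was lost when H3K23ac replicate 1 or either H3 replicate was left out.

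All 7 Transib entries were higher (median 0.84), although 2 to 5 of them were called with 1 library left out. The strongest, Transib-N1_DM, had 1184 and 1166 CPM in H3K23ac and 523 and 438 CPM in H3 (log2 1.29, adjusted p = 0.000289), and both antibodies were clearly apart. TRANSIB3, with 786 and 917 CPM in H3K23ac against 680 and 546 CPM in H3 (log2 0.47, adjusted p = 0.047), stood at the threshold and was lost with total-read scaling, with DESeq2 and without any 1 library.

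The P superfamily, named after the P element of hybrid dysgenesis, had 2 of its 5 entries called higher, and all 5 in the fit of both tables and with the factors of the cluster table. PLACW_DM, in this group by its label only, had 54 and 40 raw reads in H3K23ac and 27 and 16 in H3. After scaling this was a 4.01-fold excess of H3K23ac (log2 2.00, SE 0.384, adjusted p = 0.00158 in edgeR). P_DG had 145 and 115 raw reads in H3K23ac and 80 and 91 in H3 (2.82-fold, adjusted p = 0.000108), so both were higher. The other 3 members, PROTOP, PROTOP_A and PROTOP_B, did not pass the test under the main scaling, and PROTOP_A had 8586 and 8435 CPM in H3K23ac and 8059 and 7388 CPM in H3. The ratio within this superfamily label thus spanned from 0.14 to 2.00 on the log2 scale. The flies carried transgenes that the study writes as P constructs, and their part in these reads was not tested.

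POGON1, a short derivative of the pogo element, had 729 and 783 CPM in H3K23ac and 250 and 252 CPM in H3, a 3.01-fold excess (adjusted p = 0.000104). Single members of other DNA superfamilies, named after their values were seen, behaved likewise. HOBO, the fly hAT element, had 16777 and 16424 CPM in H3K23ac against 7662 and 7346 CPM in H3 (log2 1.15), and MARINA had 225 and 200 CPM against 77.6 and 66.2 CPM (log2 1.57). Neither of the 2 MuDR entries, NOF_FB and the MuDR-labelled Rehavkus-1_DY, passed the test.

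**Figure D2:**
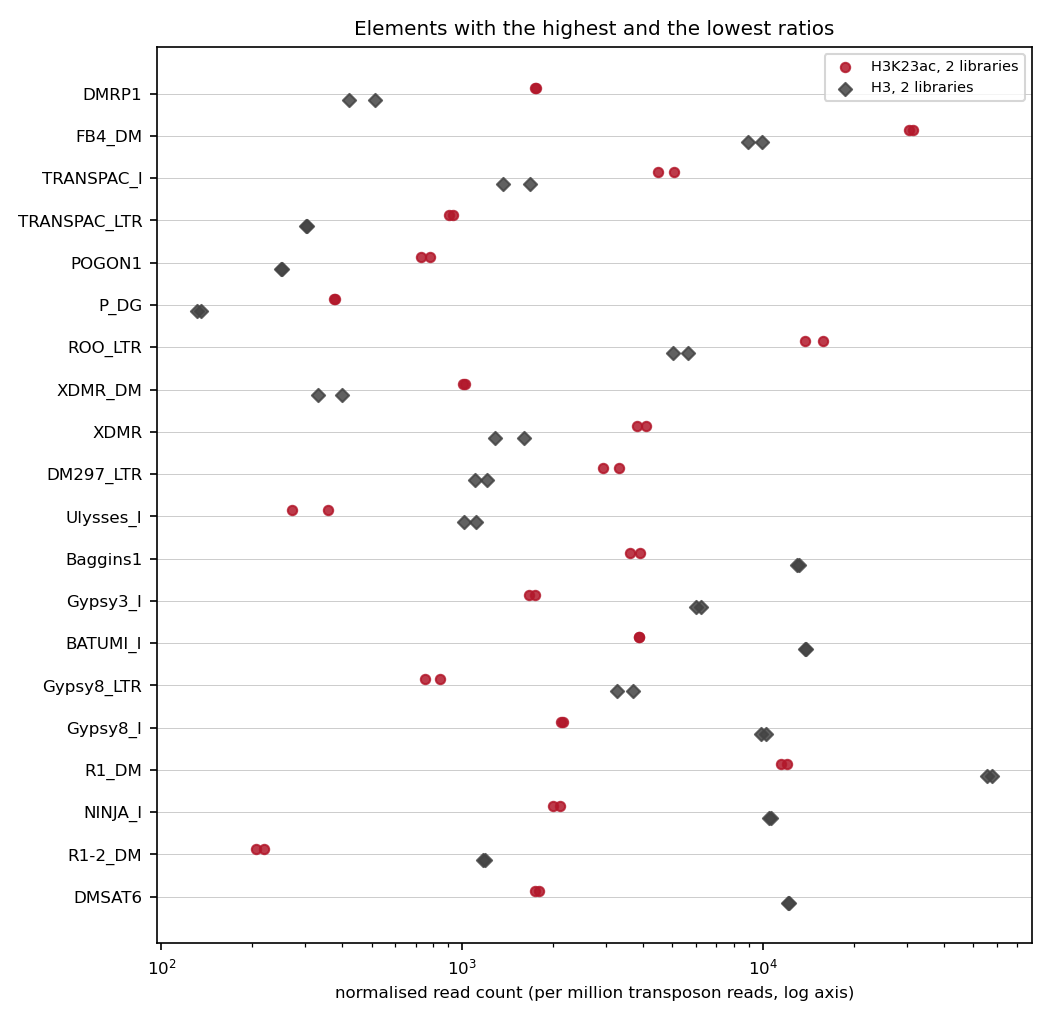
CPM on a log axis in each H3K23ac library and each H3 library of GFP_KD ovaries (1 point per library) for the 10 called elements with the highest and the 10 with the lowest ratios. FB4_DM, at 30678 and 31604 CPM in H3K23ac, has both H3K23ac points right of both H3 points, while R1_DM and DMSAT6 have them left, and no element shown has overlapping antibodies.

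Entries of the R1 superfamily were on the other side of H3 from the DNA class, and all 5 were lower in H3K23ac than in H3 (median -1.12). The R1 and R2 elements themselves insert at fixed sites of the 28S ribosomal RNA gene, whereas DMRT1A, DMRT1B and DMRT1C are relatives of R1 that are not known for this site. R1_DM had 11990 and 11521 CPM in H3K23ac and 55679 and 57818 CPM in H3, so H3 was 4.83-fold higher with no overlap (log2 -2.27, SE 0.252, adjusted p = 0.000104). R1-2_DM was as low, with 220 and 206 CPM in H3K23ac against 1176 and 1192 CPM in H3 (log2 -2.47). DMRT1B (log2 -1.12), DMRT1A (-0.89) and DMRT1C (-0.66) were less so, and DMRT1C turned to 0.13 with the factors of the cluster table.

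The 5 R1 entries took 4.25% and 3.96% of H3K23ac transposon reads as compared with 12.0% and 12.6% of H3 reads. With 1 library left out, 3 to 5 of them were called lower, and 2 with the factors of the cluster table, where the median was -0.33. The call of DMRT1A was lost when either H3K23ac replicate was left out, and that of DMRT1C also without H3 replicate 2. R2_DM had 2603 and 2345 CPM in H3K23ac against 6024 and 6322 CPM in H3 (log2 -1.32, adjusted p = 0.000503). 5S_DM, the 5S ribosomal RNA gene, which lies in an array of its own, was by contrast higher in H3K23ac. It had 8783 and 9287 CPM in H3K23ac and 3276 and 3761 CPM in H3 (log2 1.36, adjusted p = 0.00029).

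LINE elements as a class were mixed. Of the 41 LINE entries tested of 44, 9 were higher and 20 lower (median -0.39), and with the factors of the cluster table this became 21 higher and 8 lower (median 0.40). With 1 library left out, 6 were higher and 16 to 20 lower. Jockey elements, the largest LINE superfamily in the table, had 4 higher and 12 lower of 24 (median -0.44, and 0.35 with those factors). DOC2_DM was lowest among them with 1525 and 1369 CPM in H3K23ac against 4411 and 4406 CPM in H3 (log2 -1.61, adjusted p = 9.4e-05). DOC6_DM was highest, with 2210 and 2303 CPM in H3K23ac against 968 and 764 CPM in H3 (log2 1.38, adjusted p = 0.00119). Related elements of 1 superfamily thus stood at opposite ends. Baggins1 of the LOA superfamily gave 3898 and 3623 CPM in H3K23ac and 12980 and 13166 CPM in H3 (log2 -1.80). Both I entries were higher.

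DNAREP1_DM, the short INE-1 repeat spread through all fly chromosomes and labelled Penelope here, had 87567 and 90767 CPM in H3K23ac against 41294 and 40672 CPM in H3 (log2 1.12). This 1 entry took 9.15% and 9.34% of the H3K23ac transposon reads and 4.49% of the reads of either H3 library. PENELOPE itself was higher as well, at 346 and 328 CPM in H3K23ac and 110 and 89.3 CPM in H3 (log2 1.77). Both were named after their values were seen.

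LTR retrotransposons, which have the gag and pol genes of retroviruses between 2 terminal repeats, made up the largest class with 118 entries tested of 119. Of these 33 were higher and 45 lower (median -0.13), and the median turned to 0.09 in the fit of both tables and to 0.66 with the factors of the cluster table. With 1 library left out, 21 to 26 were higher and 38 to 46 lower. The class therefore had no common direction. Gypsy, its largest superfamily, had 26 higher and 32 lower of 92, near the 36.0% and 32.5% of all entries, with log2 ratios from -2.23 to 1.65 and an SD of 0.90 among entries. These counts became 52 higher and 14 lower with the factors of the cluster table and 36 and 29 in the fit of both tables, and 15 to 20 were higher with 1 library left out.

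TRANSPAC had the highest ratio of the Gypsy superfamily in both of its entries. Its internal part, TRANSPAC_I, had 4461 and 5071 CPM in H3K23ac and 1679 and 1366 CPM in H3 (log2 1.65), and TRANSPAC_LTR had 933 and 901 CPM in H3K23ac and 302 and 304 CPM in H3 (log2 1.60). Gypsy8 was at the other end in both entries, with 2161 and 2126 CPM in H3K23ac and 9884 and 10271 CPM in H3 for Gypsy8_I (log2 -2.23, 4.70-fold higher in H3). Gypsy8_LTR stood at 845 and 753 CPM in H3K23ac and 3281 and 3702 CPM in H3 (log2 -2.13). Other low members were Gypsy3_I (-1.84) and Ulysses_I (-1.75). The mark per H3 within 1 superfamily thus spanned most of the range of the table.

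The Pao superfamily (BEL/Pao elements) leaned low. Of the 17 entries tested, 3 were higher and 10 lower (median -0.70), and the median was 0.09 with the factors of the cluster table, while 2 were higher and 8 to 10 lower with 1 library left out. NINJA_I was lowest, with 2107 and 2005 CPM in H3K23ac and 10436 and 10671 CPM in H3 (log2 -2.36, 5.13-fold higher in H3). BATUMI_I had 3862 and 3859 CPM in H3K23ac against 13928 and 13811 CPM in H3 (log2 -1.85). Both entries of roo, among the most abundant LTR retrotransposons of the fly genome, went the other way. ROO_I had 140137 and 145488 CPM in H3K23ac and 59872 and 58122 CPM in H3 (log2 1.28), and ROO_LTR had 13831 and 15805 CPM against 5020 and 5644 CPM (log2 1.47). ROO_I alone took 14.6% and 15.0% of the H3K23ac transposon reads, as compared with 6.51% and 6.42% of the H3 reads, and was picked after its values were seen. Copia, the name-giving member of its superfamily, was high in Copia_I at 9339 and 10014 CPM in H3K23ac and 4260 and 3505 CPM in H3 (log2 1.32). DM1731_I was the lowest Copia entry (log2 -0.64) and turned to 0.15 with the factors of the cluster table.

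The terminal repeats and the internal part of an LTR element are listed as separate entries, which allows the 2 entries of 1 element to be compared. An entry pools reads from all its copies with unique positions, so the 2 entries need not cover the same insertions. The part of genomic location in their differences was not tested. Internal entries had 15 higher and 28 lower of 56 (median -0.33), and terminal repeat entries 16 higher and 17 lower of 57 (median -0.11). With the factors of the cluster table these became 28 higher and 13 lower (median 0.47) for internal entries and 33 higher and 4 lower (median 0.68) for terminal repeats. With 1 library left out, 9 to 10 internal and 10 to 14 terminal repeat entries were higher. The difference between the 2 parts of 1 element does not depend on the scaling. In the 52 elements with both entries tested, the terminal repeat had the higher log2 ratio in 34 and the internal part in 18. The median difference was 0.15 (0.089 when H3 replicate 1 was left out), and the range was -0.89 for TIRANT to 2.71 for OSVALDO.

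Both parts of an element mostly moved together. Across the 52 elements, which share the 4 libraries and are not independent, Pearson's r of the 2 log2 ratios was 0.744 and Spearman's rho 0.728, and the sign was the same in 37. Of the 29 elements with both parts called, 4 were called in opposite directions. The terminal repeat exceeded the internal part by more than 1 log2 unit in 5 elements, OSVALDO, ROVER, NINJA, Copia2 and DM1731, whereas no element had the reverse. By more than 0.5 units, the terminal repeat was higher in 18 and the internal part in 5.

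ROVER shows the contrast, with a mean of 5080 reads for the internal entry and 204.5 for the terminal repeat. ROVER-I_DM had 4161 and 4393 CPM in H3K23ac and 14640 and 12512 CPM in H3 (log2 -1.67), whereas ROVER-LTR_DM had 527 and 613 CPM in H3K23ac and 334 and 330 CPM in H3 (log2 0.78). The call of the terminal repeat was lost without H3 replicate 1. OSVALDO_I had 333 and 328 CPM in H3K23ac against 1108 and 1110 CPM in H3, and OSVALDO_LTR had 90.5 and 102 CPM against 37.1 and 59.0 CPM. Its terminal repeat rests on 35 and 31 reads in H3K23ac and 22 and 41 reads in H3, and its call was also lost without H3 replicate 1. The reverse case, TIRANT, had 1393 and 1415 CPM in H3K23ac and 1080 and 1009 CPM in H3 internally, and 388 and 383 CPM in H3K23ac and 482 and 579 CPM in H3 at the terminal repeat. The internal call was lost without any 1 library. The terminal repeat turned to 0.33 with the factors of the cluster table, and its call was lost without either H3K23ac replicate or H3 replicate 2. These 3 elements were picked after their values were seen.

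**Figure D3:**
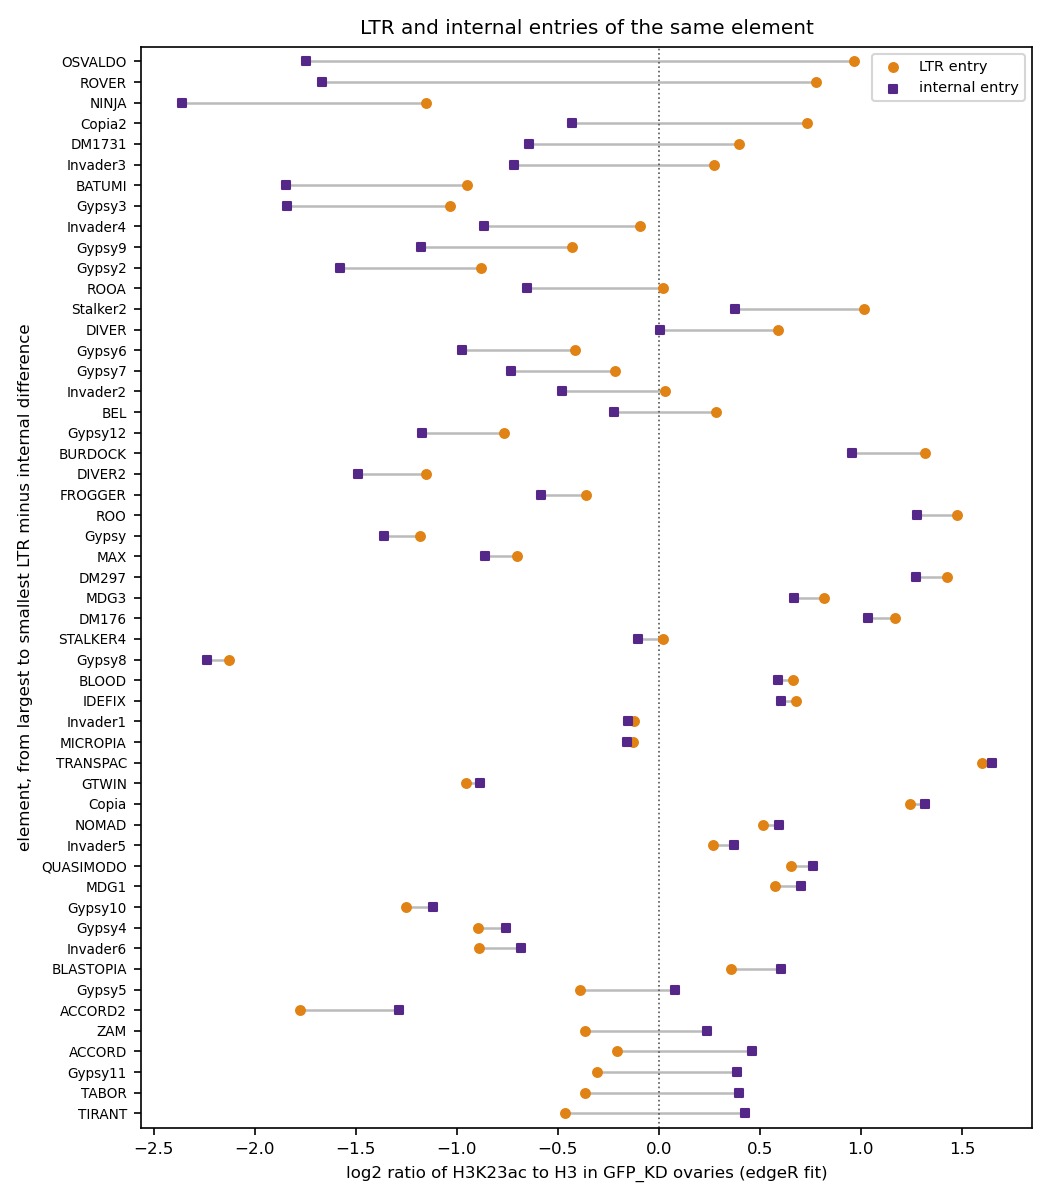
Log2 ratio of H3K23ac to H3 in GFP_KD ovaries (horizontal axis, edgeR fit) for the LTR entry (orange circle) and the internal entry (purple square) of each of the 52 elements with both tested, joined by a grey line and ordered from the largest to the smallest LTR minus internal difference. The LTR entry lies right of the internal entry in 34 elements, with the longest lines for OSVALDO and ROVER at 2.71 and 2.44, while 0 follows the TMM scaling.

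HeT-A, TAHRE and TART, the retrotransposons that form the telomeres of fly chromosomes, lay near the typical entry. HETA had 43950 and 43272 CPM in H3K23ac and 35794 and 36099 CPM in H3 (log2 0.28, adjusted p = 0.162), and TAHRE had a log2 ratio of 0.31 (adjusted p = 0.087). TART was at -0.04, which turned to 0.18 in the fit of both tables and to 0.75 with the factors of the cluster table. TART_B1 alone passed the test (log2 0.68, adjusted p = 0.0318), and not when any 1 library was left out. In the fit of both tables HETA, TAHRE and TART_B1 passed, and with the factors of the cluster table all 4 did.

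Entries labelled as satellites, the name for tandem repeats of heterochromatin, ranged from the lowest entry of the whole table to one of the highest. DMSAT6 had 1794 and 1739 CPM in H3K23ac and 12173 and 12116 CPM in H3, which is 6.87-fold higher in H3 (log2 -2.78, SE 0.218, adjusted p = 9.4e-05). HSATII had 77.5 and 102 CPM in H3K23ac and 21.9 and 28.8 CPM in H3 (log2 1.78), on 30 and 31 reads in H3K23ac and 13 and 20 in H3. It is placed here by its label only, and whether it is a fly satellite was not checked. RSP, the Responder satellite targeted by Segregation Distorter, did not pass the test (log2 0.47, adjusted p = 0.111). SAR_DM (-0.34) turned to 0.45 with the factors of the cluster table, and HETRP_DM (0.07) turned to -0.01 with total reads. Entries of unknown class were higher in 5 of 9 tested and lower in none (median 0.94), led by DMRP1 with 1758 and 1753 CPM in H3K23ac and 511 and 422 CPM in H3 (log2 1.91).

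Gypsy-group elements known from the somatic follicle cells, such as ZAM, IDEFIX and gypsy itself, had 8 higher and 6 lower of 22 entries (median 0.32), shares near the 36.0% and 32.5% of all entries. The factors of the cluster table gave 13 higher and 3 lower, and with 1 library left out 5 to 6 were higher. They spanned from -1.67 for ROVER-I_DM to 1.43 for DM297_LTR, which had 2928 and 3308 CPM in H3K23ac and 1213 and 1106 CPM in H3. Gypsy_I, also picked after its values were seen, was low, with 3391 and 3335 CPM in H3K23ac and 8705 and 8558 CPM in H3 (log2 -1.36), while both parts of ZAM and IDEFIX did not pass the test. Families that the study names as having more RNA in enok mutant ovaries had 6 higher and 1 lower of 10 entries (median 0.62), against 36.0% higher and 32.5% lower of all entries. The other scalings gave 6 to 9 higher and 1 lower. With 1 library left out, 4 to 6 were called higher. BURDOCK_I had 5314 and 4946 CPM in H3K23ac and 2799 and 2493 CPM in H3 (log2 0.96), and BARI1 had 605 and 704 CPM against 304 and 256 CPM (log2 1.22). BLOOD_I (0.59) and BLOOD_LTR (0.67) were also called, though not without H3 replicate 1. HMSBEAGLE_I was at -0.02 and turned to 0.20 in the fit of both tables. The lower entry was BATUMI_I, included through its GATE class label. BATUMI_LTR, which lacks that label, was not counted in the list and was also called lower (log2 -0.95). This list was chosen by the study from RNA of other samples.

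piRNA clusters differed as much among themselves. Of 93 clusters, 36 (38.7%) were higher in H3K23ac than in H3 and 35 (37.6%) lower, 76.3% in all, with a median log2 ratio of -0.16. The split was 22 higher and 53 lower with total reads, 18 and 62 with the factors of the transposon table, and 21 and 53 in the fit of both tables. Both H3K23ac values lay above both H3 values for 38 clusters (40.9%) and below for 47 (50.5%), and 8 clusters (8.6%) overlapped. Under the 11 settings that left out no GFP_KD library, 18 clusters were higher and 32 lower wherever they were tested. A minimum mean of 100 counts tested only 54 of the 71 called clusters.

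The ratios overlapped between locations, with different counts of calls. On scaffolds of unassembled pericentromeric heterochromatin (names ending in Het), 9 of 46 clusters were higher and 21 lower (median -0.47). Other scalings gave 0 or 1 higher and 33 to 39 lower there. On the assembled arms, 22 of 42 were higher and 14 lower (median 0.38), which became 16 or 17 higher and 20 to 23 lower with the other scalings (medians from -0.41 to -0.15). The log2 ratio ran from -1.75 to 0.92 on Het scaffolds and from -1.74 to 2.56 on the arms, and the difference between locations was not tested. Chromosome 4, a small chromosome that is largely heterochromatic yet rich in active genes, had all 4 of its clusters higher (median 1.28), and 2 or 3 of the 4 with the other scalings. Among the 27 Het clusters with a mean of at least 100 reads, 5 were higher and 13 lower (median -0.36). Clusters on Het scaffolds were longer (median 43.5 kb, as compared with 30.4 kb on the arms) and had fewer H3 reads per kb (58.3 against 141 CPM per kb), and the part of read density in the difference was not tested.

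**Figure D4:**
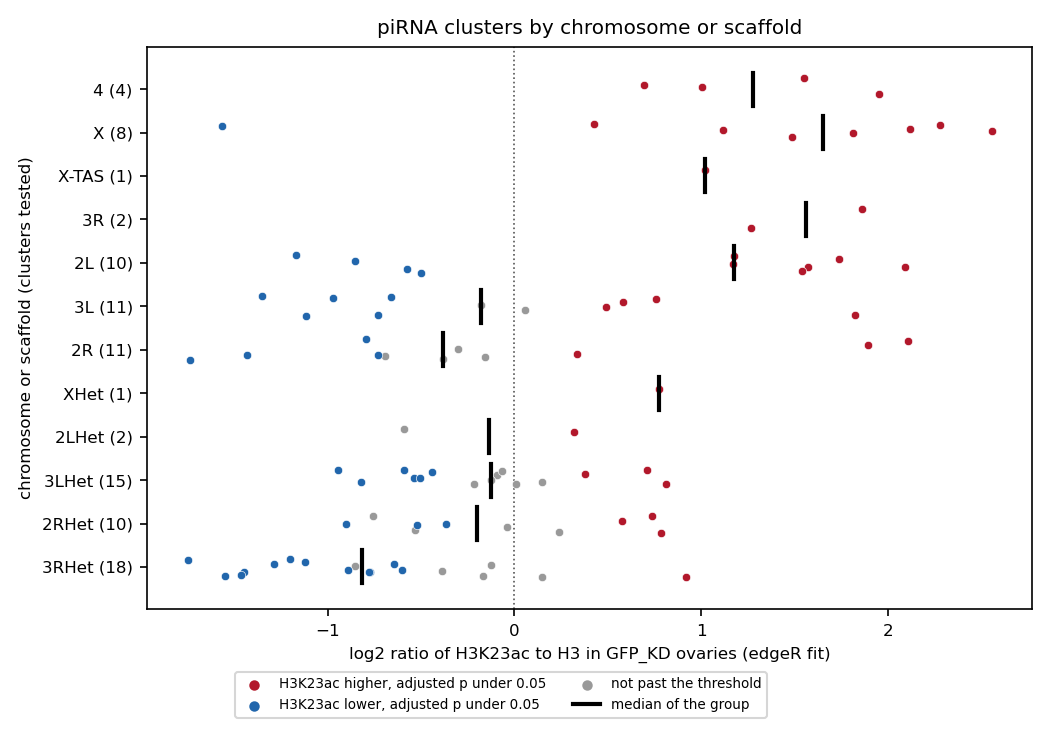
Log2 ratio of H3K23ac to H3 in GFP_KD ovaries (horizontal axis, edgeR fit) for each of the 93 piRNA clusters tested (1 point per cluster), in rows by chromosome arm or scaffold with the number of clusters, coloured by the call, with a black bar at the median of each row. All 4 clusters of chromosome 4 and 7 of 8 X clusters lie right of 0 and most 3RHet clusters left of it, and the other scalings would move the points left by 0.53 to 0.79.

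Across the 93 clusters, as a description over points that share the same libraries, the log2 ratio had a Pearson's r of 0.303 and a Spearman's rho of 0.247 with H3 CPM per kb, and of -0.347 and -0.241 with cluster length. Within the Het scaffolds these coefficients were 0.07 and -0.04 for H3 density and 0.11 and 0.11 for length, and among the 47 other clusters 0.192 and 0.213 for H3 density and -0.354 and -0.346 for length.

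All 4 clusters of chromosome 4 were called under each library left out. Cluster 29 had 37334 and 42182 CPM in H3K23ac and 10632 and 9925 CPM in H3 (log2 1.95), and cluster 78 had 7178 and 7197 CPM in H3K23ac and 2217 and 2665 CPM in H3 (log2 1.55). Cluster 3, the longest of the 4 at 89848 bp, had 118412 and 118988 CPM in H3K23ac and 57939 and 60233 CPM in H3 (log2 1.01). Cluster 106 was nearest to the typical cluster (log2 0.70) and turned to -0.09 with the factors of the transposon table. The order of these clusters thus did not follow their length.

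On the X chromosome, 7 of 8 clusters were higher and 1 lower (median 1.65), and 6 were higher with each of the other scalings. Cluster 2, the uni-strand example of the study, transcribed from 1 strand like an ordinary gene, lies at X positions 21392175 to 21431907 (dm3). It had 20766 and 20911 CPM in H3K23ac and 4315 and 4262 CPM in H3, a 4.86-fold excess (SE 0.125 on the log2 scale, adjusted p = 7.42e-52). Its neighbours toward the centromere were unlike it. Cluster 8, at X 21505666 to 21684449, had 8845 and 8436 CPM in H3K23ac and 6176 and 6679 CPM in H3 (log2 0.43), and turned to between -0.10 and -0.36 with the other scalings. Cluster 9, at X 21759393 to 21844063, was the only X cluster called lower, with 27111 and 26189 CPM in H3K23ac and 82084 and 75623 CPM in H3 (log2 -1.56, 2.96-fold higher in H3). Neighbouring clusters of 1 chromosome region thus lay at opposite ends of the scale. Cluster 110 had the highest ratio of all (log2 2.56, SE 0.509) but only 18 and 21 reads in H3K23ac and 9 and 12 in H3.

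Cluster 22 at the tip of the X chromosome had 115880 and 108073 CPM in H3K23ac and 51040 and 52444 CPM in H3 (log2 1.11). Cluster 4, the telomere-associated sequence of the X (X-TAS), had 81526 and 81325 CPM in H3K23ac and 38962 and 41244 CPM in H3 (log2 1.02). On the XHet scaffold, cluster 92 had 280535 and 272282 CPM in H3K23ac and 163173 and 160558 CPM in H3 (log2 0.77), which turned to -0.02 with the factors of the transposon table. Clusters 8, 22 and 92 were picked after their values were seen. The 5 clusters at chromosome ends (4, 11, 22, 33 and 97), put together after their values were seen, were all higher (median 1.18), and 3 to 5 of them were called higher with the other scalings.

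Cluster 1, known as 42AB, is the major dual-strand cluster of the germline, transcribed from both strands, and lies at 2R 2144349 to 2386719. It had 18234 and 15953 CPM in H3K23ac and 13513 and 13689 CPM in H3, a log2 ratio of 0.33 (SE 0.118, adjusted p = 0.00725) that turned to -0.20 with total reads, -0.46 with the factors of the transposon table and -0.24 in the fit of both tables. The call was also lost without H3K23ac replicate 1 and without either H3 replicate. On the same arm, cluster 128 was high, with 8044 and 8436 CPM in H3K23ac and 2003 and 1815 CPM in H3 (log2 2.11), and cluster 71 low, with 288 and 400 CPM in H3K23ac and 1185 and 1089 CPM in H3 (log2 -1.74).

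In the proximal part of 2L, neighbouring clusters were called in opposite directions. Cluster 23 ends at 2L position 22420241 and cluster 79 starts at 22420341. Cluster 23 had 2532 and 2479 CPM in H3K23ac and 4279 and 4770 CPM in H3 (log2 -0.85), whereas cluster 79 had 25830 and 26788 CPM in H3K23ac and 8001 and 7747 CPM in H3 (log2 1.74). The next cluster, 31, was low again (log2 -1.17). This trio was chosen after its values were seen. Farther out on 2L, cluster 107 had 16472 and 12315 CPM in H3K23ac against 3568 and 3225 CPM in H3 (log2 2.09), and cluster 5 had 13652 and 12435 CPM against 4350 and 4449 CPM (log2 1.57).

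The clusters were also set in their order along each arm. With a boundary drawn on each arm after the values were seen (2L 22 Mb, 2R 2 Mb, 3L 22 Mb, 3R 1 Mb, X 21 Mb), all 13 clusters on the side away from the centromere were higher (median 1.57, from 0.33 to 2.56). With the other scalings 11 or 12 of the 13 were higher, and 1 or none lower. Of the 29 on the centromere side, 9 were higher and 14 lower (median -0.50), and 5 higher and 20 to 22 lower with the other scalings. Some of the highest ratios were on that side too, in clusters 2, 42, 45 and 79. As the boundary was set on these values, the counts are a description.

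**Figure D5:**
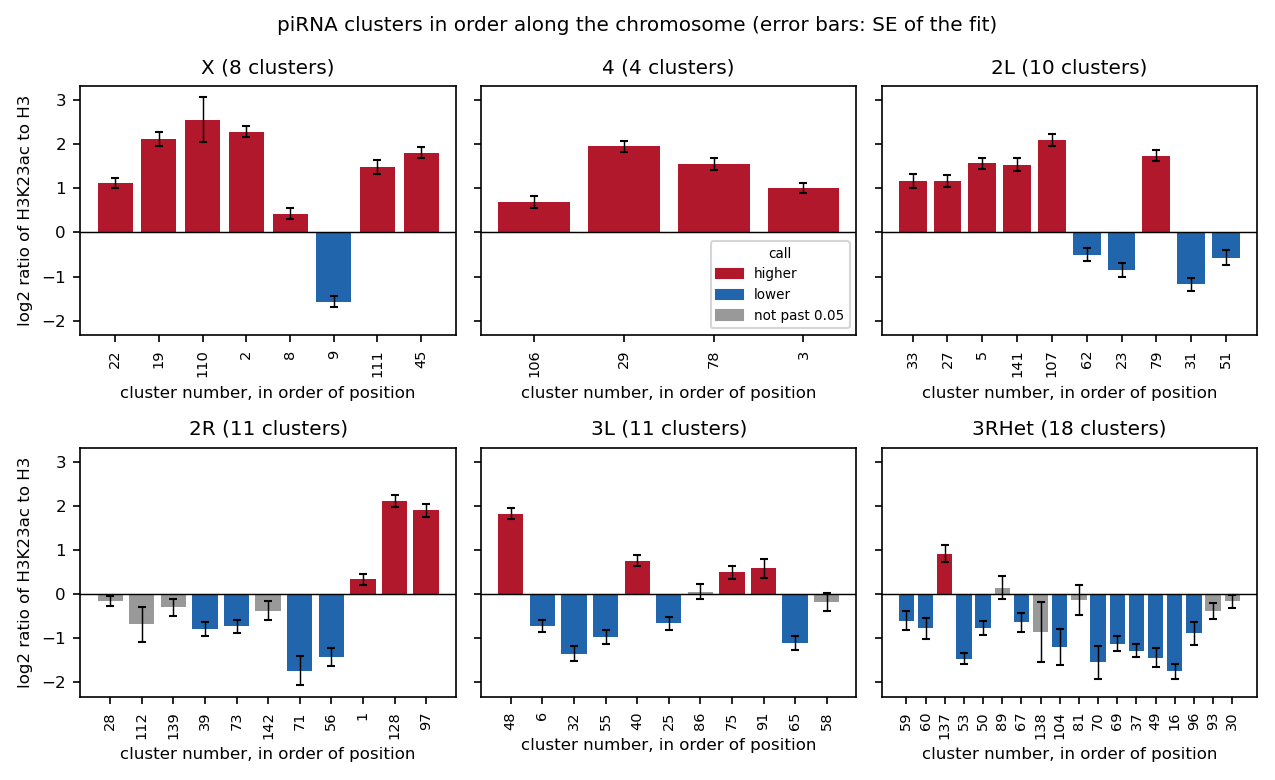
Log2 ratio of H3K23ac to H3 in GFP_KD ovaries (vertical axis, bars from 0 with the SE of the edgeR fit) for the piRNA clusters of the X, 4, 2L, 2R and 3L chromosomes and the 3RHet scaffold, in order of position and coloured by the call. The bars change sign between neighbours on the X (clusters 8 and 9) and on 2L (clusters 23 and 79). Low positive bars, among them those of clusters 1 and 8, would turn below 0 with the other scalings.

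The 3RHet scaffold had 1 higher and 12 lower of 18 clusters (median -0.82), and 8 to 12 were called lower with 1 library left out. Cluster 53 there had 7210 and 7157 CPM in H3K23ac and 20328 and 19300 CPM in H3 (log2 -1.46), and cluster 16 had 1955 and 1399 CPM in H3K23ac and 5287 and 6160 CPM in H3 (log2 -1.75). The exception was the cluster at 3RHet 185301 to 208455, with 2019 and 2119 CPM in H3K23ac and 948 and 1224 CPM in H3 (log2 0.92). Its call was lost with each of the other scalings. The 2RHet scaffold had 3 higher and 3 lower of 10, and 3LHet 3 higher and 6 lower of 15, where the other scalings left none higher.

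Clusters that the study describes as having severely lower piRNAs in enok mutants (1, 5, 11, 29, 33, 42 and 78) were all higher before the loss of Enok, with ratios from 0.33 to 1.95, as compared with 38.7% of all clusters. None of the 7 lies on a Het scaffold. Of the 47 clusters off these scaffolds, 27 (57.4%) were higher and 14 lower. The part of location in the counts was not tested. With the other scalings 5 or 6 of the 7 were higher, and cluster 1 turned. Cluster 42, which with cluster 33 holds an expressed gene, had 19452 and 19791 CPM in H3K23ac and 5061 and 5725 CPM in H3 (log2 1.86). Cluster 33 had 4006 and 3718 CPM in H3K23ac and 1861 and 1576 CPM in H3 (log2 1.18), and cluster 11 had 1731 and 1439 CPM against 628 and 695 CPM (log2 1.27). Of the 6 clusters with less RNA in enok mutants (1, 5, 29, 78, the 3RHet cluster just described and 1 on 3LHet), 5 were higher and that on 3LHet was lower (log2 -0.51), and with the other scalings 3 were higher and 1 or 2 lower. Both lists come from the study's RNA data, and not from these libraries.

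The enok_KD ovaries, in which hairpin RNA against enok replaced that against EGFP, gave medians of the same ratio that were close to those of GFP_KD for some groups and apart for others. The median log2 ratio was 0.78 in enok_KD and 0.84 in GFP_KD for DNA transposons, -1.21 and -1.12 for R1, 0.95 and 1.28 for chromosome 4, and -0.30 and -0.47 for the Het scaffolds. For clusters away from the centromere it was 1.13 in enok_KD and 1.57 in GFP_KD, and for 2L clusters 0.36 and 1.17. The boundary for the clusters away from the centromere was set on the GFP_KD values, so their 2 medians are a description only. Transib stood at 0.39 in enok_KD and 0.84 in GFP_KD, satellites at -0.86 and 0.07, R2_DM at -0.16 and -1.32, 2RHet at 0.15 and -0.20, and the XHet cluster at 1.84 and 0.77. Only some of the groups are given, and these differences were not tested here.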

How the data were processed

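Ovary chromatin of GFP_KD flies was immunoprecipitated with antibodies to H3 and H3K23ac (2 replicates each) and sequenced as single-end reads, which the authors aligned to dm3 with Bowtie2 2.2.1, keeping unique reads without mismatches. Trimmomatic and bedtools are named in the submitters' processing notes without a version. Duplicate handling, the counting tool and the repeat annotation are not given in the sources used here. The authors deposited raw read counts per transposon entry and per piRNA cluster. The cluster tables also hold the authors' DESeq2 comparison of enok_KD with GFP_KD, which was not used.

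H3K23ac and H3 counts were joined by entry or cluster. Features with a mean of at least 10 counts over the 8 H3 and H3K23ac libraries were fitted in edgeR 4.0.16 (R 4.3.3, limma 3.58.1) with 4 group means, TMM factors per table and the quasi-likelihood test. The contrast was H3K23ac minus H3 within GFP_KD, adjusted by Benjamini-Hochberg over the table. The script was tested on simulated counts. Entries of 1 element and reads in both tables share their source, and overlapping or near-identical copies may be under-represented.

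Depth was a median of 700 reads per entry and 220.75 per cluster over the 4 libraries. H3 and H3K23ac libraries of one number share only that number. The text names the 10 highest and 10 lowest called features with a mean of at least 100 counts in each table, the extremes of each superfamily with at least 3 entries and of each location, all telomeric, ribosomal, satellite and chromosome 4 members, and the lists taken from the study. Others are stated as chosen after their values were seen. The members and lists were chosen with earlier results of these data known. Alternatives were total-read scaling, DESeq2 1.42.0 and its size factors, factors of the other table, both tables in 1 fit, other count minimums, the GFP_KD libraries alone, a replicate block, and each replicate left out.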

Additional observations from a re-analysis of the deposited data

How the results depend on the processing

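The number past the threshold moved with the scaling, since another scaling shifts all log2 ratios of a table nearly together, whereas leaving out a library moved single features unequally. With the factors of the other table, 128 elements were higher and 26 lower, and 18 clusters were higher and 62 lower. Higher and lower clusters numbered 22 and 53 with total reads and 21 and 53 in 1 fit of both tables, and 23 clusters were higher with a minimum mean of 100 counts, where fewer clusters were tested. Counts of calls with 1 library left out ranged from 112 to 119 for elements (52 to 57 higher, 55 to 67 lower) and from 60 to 68 for clusters (32 to 33 higher, 28 to 35 lower), and fewer samples were then fitted. The median difference between terminal repeat and internal part ranged from 0.089 to 0.205. DESeq2, its size factors, no count minimum, the minimum over GFP_KD libraries and the GFP_KD libraries alone changed no count by more than 1.5 times. Turns of sign are listed here for some features only. Others turned as well, such as ACCORD_LTR, from -0.208 to 0.0113 in the fit of both tables. Signs of listed features turned as follows with the factors of the other table: DMRT1C to 0.128, DM1731_I to 0.147, SAR_DM to 0.446, TART to 0.751, HMSBEAGLE_I to 0.772, Copia2_I to 0.361, FW_DM to 0.581, TIRANT_LTR to 0.326, and clusters 1 to -0.458, 106 to -0.0948, 92 to -0.0183, 8 to -0.362, 40 to -0.0341 and 26 to -0.0818. In the fit of both tables TART turned to 0.179, HMSBEAGLE_I to 0.201, FW_DM to 0.00899, cluster 1 to -0.242 and cluster 8 to -0.144. With total reads HETRP_DM turned to -0.0143, cluster 1 to -0.199 and cluster 8 to -0.105. HETRP_DM also turned to -0.0347 with the GFP_KD libraries alone and ranged from -0.152 to 0.164 with 1 library left out, and the cause was not tested. With the replicate number as a block, 91 elements were higher and 77 lower, and 36 clusters higher and 35 lower. All 139 element calls and 71 cluster calls were kept, and SAR_DM, HETA, TAHRE, RSP and FW_DM passed the threshold. The deviations of same-numbered libraries correlated at -0.0203 over elements and 0.0379 over clusters, so the number was not taken as a pairing.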
